A study of Mus musculus with 40 samples.

Results

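The 40 genes described here are type I interferon-stimulated genes, followed across 39 primary mammary tumors. They were chosen by name, and all 40 were found among the 14318 genes of the deposited RNA-sequencing table. One of them, Ddx58, is listed there under its current symbol Rigi and was matched by its Entrez identifier. Type I interferons are cytokines released when cells sense viral or displaced nucleic acid. They bind a receptor of the subunits Ifnar1 and Ifnar2 and activate a transcription factor complex that includes Stat2 and Irf9, which enters the nucleus and binds the interferon-stimulated response element (ISRE) in the promoters of its target genes. The products of these genes sense or degrade foreign nucleic acid, modify proteins and amplify or end the response. In tumors, the same genes are read as a sign of interferon signaling in cancer cells or infiltrating immune cells.

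The tumors were grown in wild-type female BALB/c mice, mated at 8 weeks of age and inoculated while lactating, through intraductal injection of luciferase-expressing 4T1 or 66cl4 cells. Both are mammary carcinoma lines of BALB/c origin, used as models of triple-negative breast cancer. Each model had an untreated group and groups given anti-PD-1, chitin or chitin + anti-PD-1. Chitin was given at 1 mg every 3 d and the anti-PD-1 antibody at 200 µg weekly, for 2 weeks from 3 w p.i., and tumors were collected at 5 w p.i. Groups held 5 tumors, apart from untreated 4T1, where tumors 1, 2, 4 and 5 were analysed and tumor 3 was not analysed here. The paper states that tumor 3 was left out as an outlier with degraded RNA. Each model is 1 cell line, and per the study's methods more 66cl4 than 4T1 cells were injected. The line, the model and the number of injected cells cannot be told apart. Read depth ran from 5105898 to 14800352 reads on listed genes per tumor, with a median of 6590274. Of the epithelial markers, Epcam was at 2426 to 6890 normalized counts in untreated 4T1 tumors and at 7.51 to 30.7 in untreated 66cl4 tumors, whereas Krt8 was at 3152 or more in all tumors of both groups. Expression is given below in 2 ways, as the deposited value on a log2-like scale, on which the differences were tested, and as a normalized count, meaning the recovered reads after division by each library's size factor. On the log2-like scale the differences of weakly expressed genes are compressed. Within these bulk tumors, fewer cells of a type and less RNA per cell cannot be told apart.

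The response element was searched in the RefSeq promoters of the genes (GRCm38.p6, from 250 bases before to 50 after an annotated start). A promoter was listed for 31 of the 40 genes. The core of the element was taken as GAAA, any 2 bases and GAAA again, or TTTC, any 2 bases and TTTC on the other strand, and overlapping matches were counted. It was found in the promoters of 14 of these 31 genes (45.2%), against 3.89% of the 11334 listed genes with a promoter and 3.44% of all 32851 promoters. The core of the interferon gamma-activated element, TTC and GAA with any 3 bases between them on either strand, was found in 5 of the 31 (16.1%) against 8.29% of listed genes. The ISRE and its surroundings are shown for 6 genes to set those that were higher in untreated 4T1 tumors beside those that did not pass the test. Capitals mark the ISRE core, and all 6 genes lie on the minus strand, so that sequences are given in the direction of transcription. Isg15 (chr4:156200819-156200968), Bst2 (chr8:71537473-71537622) and Oas3 (chr5:120777660-120777809) were higher in untreated 4T1 tumors, and the 150 bases before their start read:

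Isg15: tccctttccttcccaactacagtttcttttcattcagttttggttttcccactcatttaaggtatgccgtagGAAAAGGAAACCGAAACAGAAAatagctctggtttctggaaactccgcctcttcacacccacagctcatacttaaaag

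Bst2: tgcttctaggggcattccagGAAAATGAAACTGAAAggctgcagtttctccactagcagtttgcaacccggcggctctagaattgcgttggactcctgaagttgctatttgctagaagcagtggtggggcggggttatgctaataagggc

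Oas3: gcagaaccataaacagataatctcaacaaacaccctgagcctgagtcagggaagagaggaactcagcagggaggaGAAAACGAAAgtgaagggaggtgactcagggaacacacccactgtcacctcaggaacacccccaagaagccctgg

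In Isg15, 3 overlapping matches lay 78 to 57 bases before the start, in Bst2 there were 2 overlapping matches 130 to 115 bases before it, and in Oas3 there was 1 match, 75 to 66 bases before it. Rsad2 (chr12:26456453-26456602), Trim30a (chr7:104465194-104465343) and Rigi (chr4:40239804-40239833) did not pass the test between the untreated models. For Rsad2 and Trim30a the 150 bases before the start are shown, and for Rigi 30 bases around its match, which lay just after the annotated start:

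Rsad2: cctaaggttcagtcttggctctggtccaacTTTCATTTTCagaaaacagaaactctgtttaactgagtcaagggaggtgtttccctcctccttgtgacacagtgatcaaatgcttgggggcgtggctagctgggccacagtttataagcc

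Trim30a: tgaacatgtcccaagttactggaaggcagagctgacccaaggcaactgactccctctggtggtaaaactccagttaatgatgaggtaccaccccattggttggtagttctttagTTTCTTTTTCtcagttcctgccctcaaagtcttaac

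Rigi: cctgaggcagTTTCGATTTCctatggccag

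Of the 14 genes with the core, 10 were higher in untreated 4T1 tumors, with a median difference of 0.76 on the log2-like scale. Of the 17 with a promoter but no core, 14 were higher, with a median difference of 0.86. The annotated starts of several genes, with and without a core, did not match a transcript start of the GENCODE annotation. Of those shown, this was so for Bst2 and Oas3. A core outside the searched bases would be missed. A match of these letters is a description and was not tested as a binding site.

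Most interferon-stimulated genes were more highly expressed in untreated 4T1 than in untreated 66cl4 tumors. Of the 40 genes, 31 were higher in 4T1 and 0 were lower at an adjusted p of 0.05 (limma over all 14318 genes, Benjamini-Hochberg), where 28.7% of all genes were higher and 27.1% were lower. The median difference was 1.03 on the log2-like scale over the 40 genes and 0.02 over all genes. For 30 of the 40, every 4T1 tumor was above every 66cl4 tumor, which was so for 22.3% of all genes, and for 0 of the 40 every 4T1 tumor was below (20.7% of all genes). The counts of the 40 genes are read against these shares. Each fit between the models takes 1 spread per gene for both, while the SD within groups was wider in 4T1 (below). The SE, intervals and p between the untreated models may thus be too small, as the 4T1 group also holds fewer tumors. limma-voom on the recovered reads also gave 31 higher and 0 lower.

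**Figure D1:**
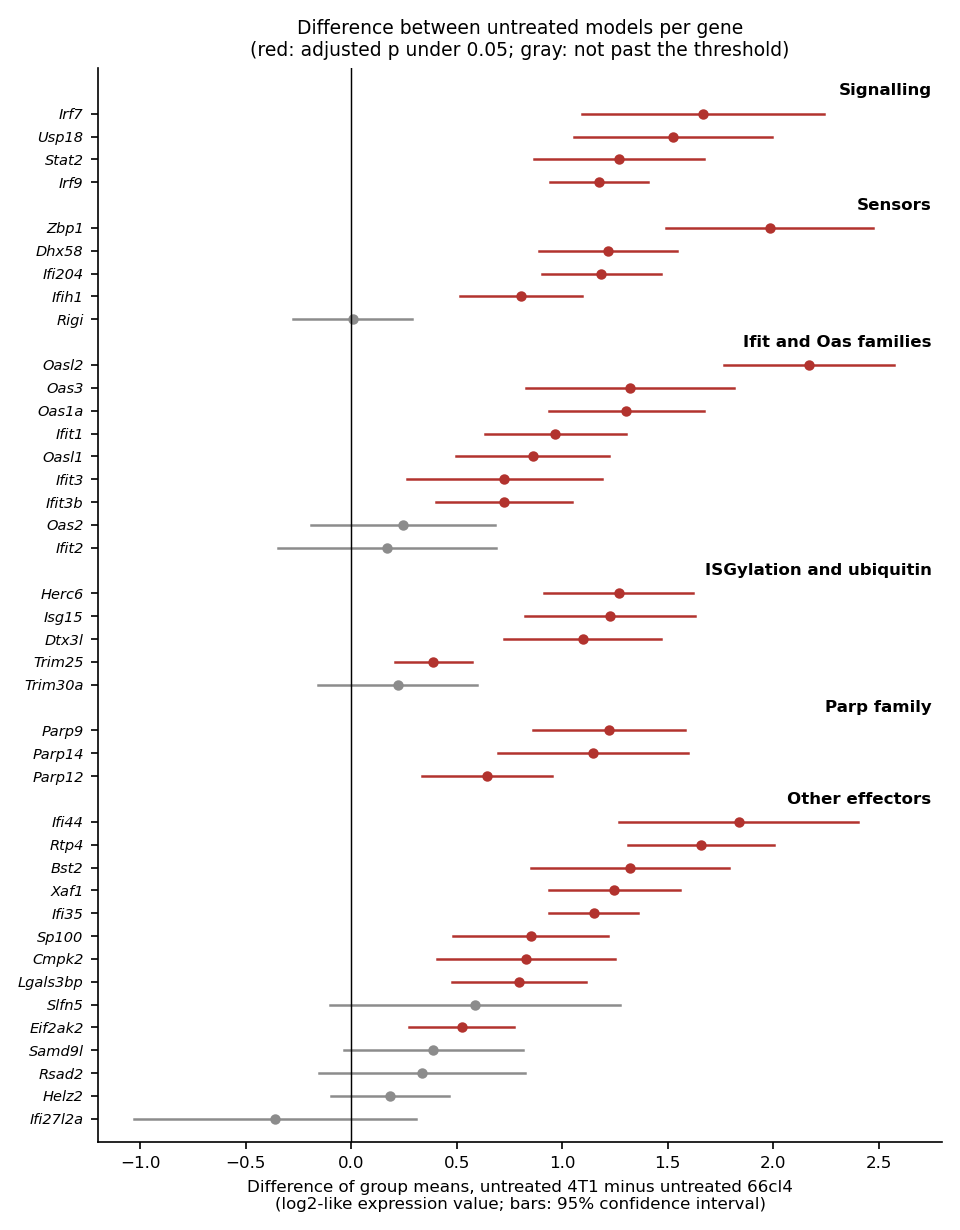
Difference of the mean log2-like expression value between untreated 4T1 (n = 4) and untreated 66cl4 tumors (n = 5) for each of the 40 genes, grouped by role; bars are 95% confidence intervals from limma, red marks an adjusted p under 0.05 and gray the others. Of the 40 points, 39 lie right of 0, with Oasl2 farthest at 2.17 and Ifi27l2a alone left of 0 at -0.36.

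All 4 signalling genes were higher in 4T1, with a median difference of 1.40. Irf9 (chr14:55603985-55610030, mm10) encodes the DNA-binding subunit of this complex. Irf9 was at 809.8, 669, 660.4 and 933 normalized counts in untreated 4T1 tumors 1, 2, 4 and 5, against 252, 295, 241, 278 and 300.3 in untreated 66cl4 tumors 1 to 5. The groups did not overlap, and the means differed by 2.81-fold in normalized counts and by 1.17 ± 0.11 (SE) on the log2-like scale (limma, adjusted p = 1.06e-10). Stat2 was at 1238, 711, 962 and 2008 normalized counts in untreated 4T1 tumors 1, 2, 4 and 5, against 374, 423, 364, 471 and 407 in untreated 66cl4 tumors 1 to 5. Stat2, its partner in the complex, thus had no overlap either, and differed by 1.27 ± 0.20 (limma, adjusted p = 1.73e-06). Usp18 removes Isg15 from proteins and dampens receptor signaling. Usp18 was at 419, 256, 273 and 716 normalized counts in untreated 4T1 tumors 1, 2, 4 and 5, against 58.8, 63, 65.1, 76 and 88.1 in untreated 66cl4 tumors 1 to 5. Its means differed by 5.92-fold, and by 1.52 ± 0.23 on the log2-like scale (limma, adjusted p = 1.18e-06). Irf7, the transcription factor that drives a second wave of interferon production, was at 1487, 708, 1248 and 1875 normalized counts in untreated 4T1 tumors and at 315, 279.7, 362, 317 and 306 in untreated 66cl4 tumors. It differed by 1.67 ± 0.28 (limma, adjusted p = 6.42e-06), with 4T1 tumor 2 the lowest of its group for Irf7, Stat2 and Usp18.

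Of the 5 sensors of nucleic acid, 4 were higher in 4T1. Zbp1 (chr2:173206612-173218959), a sensor of Z-form nucleic acid that can trigger cell death, had the largest difference of the sensors. Zbp1 was at 1260.2, 485, 494 and 1208 normalized counts in untreated 4T1 tumors 1, 2, 4 and 5, against 72.6, 104, 137, 164 and 125 in untreated 66cl4 tumors 1 to 5. Its lowest 4T1 tumor was above the highest 66cl4 tumor, and the means differed by 7.14-fold in normalized counts and by 1.98 ± 0.24 on the log2-like scale (limma, adjusted p = 1.63e-08). Ifi204, a member of the family of DNA sensors with a HIN domain, was at 930.4, 596, 749.7 and 1073 in 4T1 and at 303, 298, 321, 278 and 276 in 66cl4, a difference of 1.18 ± 0.14 (limma, adjusted p = 7.54e-09). Ifi204 shares 33.0% of its 32-base words with transcripts of other genes, most often Ifi211, so that its count is uncertain. Dhx58 encodes Lgp2, a regulator of the RNA sensors of the Rig-I family. It was at 448, 241, 353 and 540.0 normalized counts in 4T1 and at 90.1, 76.8, 124, 134 and 109 in 66cl4, and differed by 1.22 ± 0.16 (limma, adjusted p = 9.43e-08). Of the RNA sensors themselves, Ifih1, which encodes Mda5, was higher by 0.80 ± 0.14, while Rigi did not pass the test. Rigi was at 344, 342, 553 and 550.4 normalized counts in untreated 4T1 tumors 1, 2, 4 and 5, against 380.5, 419.5, 466, 456 and 458 in untreated 66cl4 tumors 1 to 5. The Rigi values of the models overlapped, and the 95% confidence interval of the difference, -0.27 to 0.29 on the log2-like scale, lay below the point estimates of the 4 other sensors.

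Of the 9 genes of the Ifit and Oas families, 7 were higher in 4T1. Ifit proteins bind foreign RNA and block its translation, and Oas proteins make the second messenger that activates RNase L. Oasl2 (chr5:114896926-114912245), an Oas-like gene, showed the largest difference of the 40 genes on the log2-like scale, while in the fold of mean normalized counts Zbp1 was higher. Oasl2 was at 1459, 1189.9, 1136 and 2187 normalized counts in untreated 4T1 tumors 1, 2, 4 and 5, against 193, 233, 238, 246 and 243 in untreated 66cl4 tumors 1 to 5. Its lowest 4T1 value was well above its highest 66cl4 value, and the means differed by 6.48-fold and by 2.17 ± 0.20 on the log2-like scale (limma, adjusted p = 3.04e-11). Oas1a was at 945, 539, 670.4 and 1127 in 4T1 and 220.3, 217, 317, 247 and 267 in 66cl4 (1.30 ± 0.18; limma, adjusted p = 1.99e-07), although 68.2% of its 32-base words also occur in other genes, mainly Oas1g, which makes its count uncertain. Ifit1 was at 189, 144, 167 and 236 normalized counts in 4T1 and at 51.3, 42.4, 55.4, 47.7 and 50.7 in 66cl4, and differed by 0.97 ± 0.17 (limma, adjusted p = 7.81e-06). Oas3 was at 414, 227, 304 and 823 in 4T1 and at 97.6, 105, 96.7, 88.9 and 104 in 66cl4, with a difference of 1.32 ± 0.24. Ifit3 and Ifit3b, near-identical neighbors on chromosome 19 that share 61.1% and 54.6% of their words with other genes, were higher by 0.72 ± 0.23 and 0.72 ± 0.16, and Oasl1 by 0.86 ± 0.18. Ifit2 and Oas2 did not pass the test. Ifit2 was at 388, 197, 364 and 603 normalized counts in untreated 4T1 tumors 1, 2, 4 and 5, against 304, 279.7, 339, 349 and 298 in untreated 66cl4 tumors 1 to 5. For Ifit2, 4T1 tumor 2 lay below and the 3 other 4T1 tumors above all 66cl4 tumors. The differences were 0.17 for Ifit2 (95% confidence interval -0.35 to 0.69) and 0.25 for Oas2 (-0.19 to 0.68).

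Of the 5 genes of ISGylation and ubiquitin ligation, 4 were higher in 4T1. Isg15 (chr4:156199424-156200818) encodes a ubiquitin-like protein that is coupled to other proteins, and Herc6 the ligase that couples it in mice. Isg15 was at 493, 302, 346 and 507 normalized counts in untreated 4T1 tumors 1, 2, 4 and 5, against 92.6, 99.7, 142, 113 and 120.1 in untreated 66cl4 tumors 1 to 5. The groups stood apart, with means that differed by 3.63-fold in normalized counts and by 1.23 ± 0.20 on the log2-like scale (limma, adjusted p = 3.25e-06). Herc6 was at 711, 321, 508 and 734 normalized counts in untreated 4T1 tumors 1, 2, 4 and 5, against 144, 155, 157, 194 and 163 in untreated 66cl4 tumors 1 to 5. Herc6 differed by 1.27 ± 0.17 (limma, adjusted p = 1.66e-07). Dtx3l, a ubiquitin ligase that works with Parp9, was at 1330.0, 804, 1169 and 1917 in 4T1 and at 484, 518, 473, 612 and 517 in 66cl4, a difference of 1.10 ± 0.18 (limma, adjusted p = 5.26e-06). Trim25, a ligase that activates Rig-I, was higher by only 0.39 ± 0.09, the smallest difference of the 31 genes that passed. Trim30a differed by 0.22, with a 95% confidence interval of -0.16 to 0.60, and did not pass the test.

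All 3 genes of the Parp family, whose products attach ADP-ribose to proteins, were higher in 4T1. Parp9 was at 1460.0, 769, 910.0 and 1697 normalized counts in untreated 4T1 tumors 1, 2, 4 and 5, against 363, 401, 456, 466 and 447 in untreated 66cl4 tumors 1 to 5. The Parp9 means differed by 2.83-fold, and by 1.22 ± 0.18 on the log2-like scale (limma, adjusted p = 4.69e-07). Parp9 overlaps Dtx3l at its start on chromosome 16 (chr16:35938470-35972621 and chr16:35926515-35939027). The authors counted reads with strand, and an effect of this overlap on their counts was not tested. Parp14 was at 1401, 885, 1359.9 and 2643 in 4T1 and 562, 556, 586, 679 and 586 in 66cl4 (1.15 ± 0.22; limma, adjusted p = 5.08e-05). Parp12 was at 797, 608, 659 and 954 in 4T1 and 333, 405, 492, 501 and 459 in 66cl4. All 3 genes were without overlap, and Parp12 showed the smallest difference, 0.64 ± 0.15 (limma, adjusted p = 0.000537).

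Of the 14 other effectors, 9 were higher in 4T1. Ifi35 (chr11:101448412-101458701), which binds the interferon-induced protein Nmi, had the smallest p of the 40 genes. Ifi35 was at 625, 388, 369 and 578 normalized counts in untreated 4T1 tumors 1, 2, 4 and 5, against 118, 139.8, 191, 174 and 167 in untreated 66cl4 tumors 1 to 5. Its groups did not overlap, and differed by 3.11-fold and by 1.15 ± 0.10 on the log2-like scale (limma, adjusted p = 2.4e-11). Rtp4 was at 789.7, 507, 503 and 815 normalized counts in untreated 4T1 tumors 1, 2, 4 and 5, against 113, 117, 162, 128 and 127 in untreated 66cl4 tumors 1 to 5. Rtp4, a chaperone of G-protein-coupled receptors that also inhibits viral replication, differed by 1.66 ± 0.17 (limma, adjusted p = 4.46e-10). Xaf1, a partner of the apoptosis inhibitor Xiap, was at 497, 256, 276 and 564 in 4T1 and at 96.4, 75.7, 112, 112 and 109 in 66cl4 (1.25 ± 0.15; limma, adjusted p = 1.97e-08). Bst2, which encodes tetherin, holds budding virus at the cell surface. Bst2 was at 2792, 1783, 1557 and 3455 normalized counts in untreated 4T1 tumors 1, 2, 4 and 5, against 717, 774, 931, 749.6 and 1054 in untreated 66cl4 tumors 1 to 5. Per kilobase of exon it was the most abundant of the 40 genes in untreated 4T1 tumors, at a mean of 2654 normalized counts per kb against 936 in untreated 66cl4 tumors. The other called effectors were Ifi44 (1.84 ± 0.28), Sp100 (0.85 ± 0.18), Cmpk2 (0.83 ± 0.21), Lgals3bp (0.80 ± 0.16) and Eif2ak2 (0.52 ± 0.12), the last encoding the RNA-activated kinase Pkr.

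The 5 effectors that did not pass the test were Slfn5, Samd9l, Rsad2, Helz2 and Ifi27l2a. Rsad2 encodes viperin, which makes a chain-terminating nucleotide. Rsad2 was at 130.0, 75.1, 164 and 132 normalized counts in untreated 4T1 tumors 1, 2, 4 and 5, against 66.3, 58.5, 125, 48.9 and 109 in untreated 66cl4 tumors 1 to 5. Its groups overlapped, and the difference of 0.33 had a 95% confidence interval of -0.15 to 0.82. Slfn5, at 389, 283, 928 and 818 normalized counts in 4T1 and 240.3, 347, 366, 386 and 314 in 66cl4, was spread so widely in 4T1 that its difference of 0.58 had an interval of -0.10 to 1.27. Ifi27l2a, which encodes a small mitochondrial protein, was the only one of the 40 genes with a lower mean in 4T1. Ifi27l2a was at 376, 233, 353 and 304 normalized counts in untreated 4T1 tumors 1, 2, 4 and 5, against 322, 469, 590.0, 384 and 446 in untreated 66cl4 tumors 1 to 5. Here 4T1 tumors 1 and 4 lay inside the range of 66cl4 and tumors 2 and 5 below it, and the difference was -0.36 (-1.03 to 0.31). Leaving out 4T1 tumor 2 brought Samd9l and Trim30a past the threshold, at 0.61 and 0.47.

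**Figure D2:**
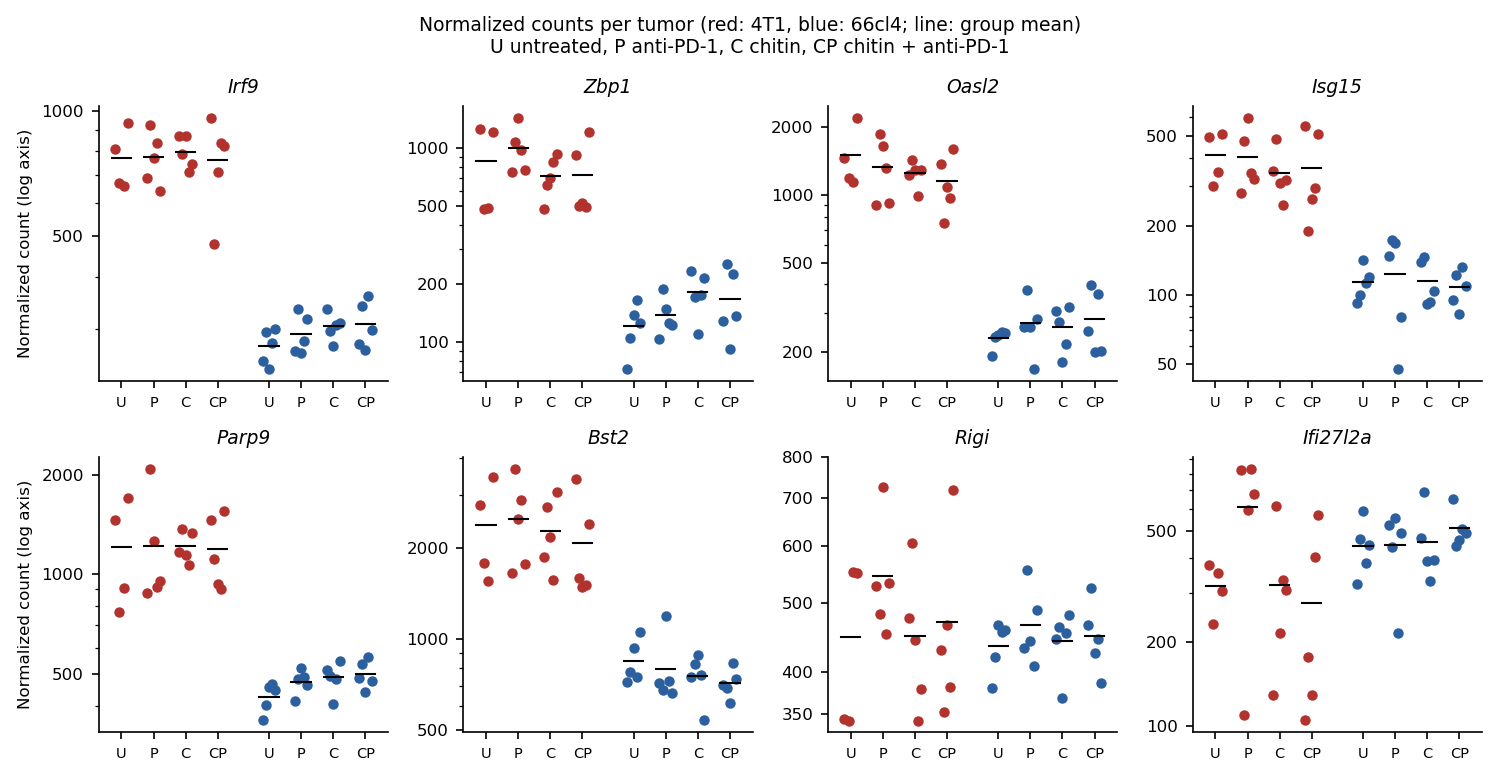
Normalized counts on a log axis for 8 of the 40 genes in each tumor of the 8 groups; points are tumors, lines are group means, red is 4T1 and blue is 66cl4. For Irf9, Zbp1, Oasl2, Isg15, Parp9 and Bst2 all 19 tumors of 4T1 lie above all 20 of 66cl4, while the models overlap for Rigi and Ifi27l2a.

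Genes upstream of the interferon-stimulated genes were called in both directions at shares near those of all genes. Of 22 listed genes for receptors, kinases, sensors and their adaptors, 7 were higher and 6 were lower in untreated 4T1 tumors, where 28.7% and 27.1% of all genes were, with a median difference of 0.17. Irf1, a factor induced by interferons, was higher by 1.50 ± 0.22 (limma, adjusted p = 6.16e-07). The receptor subunit Ifnar1 was at 886 ± 116 (SD, n = 4) and 879 ± 68.8 (SD, n = 5) normalized counts and did not pass the test, with a difference of 0.0052 ± 0.074 on the log2-like scale, whereas Ifnar2 differed by -0.37 ± 0.12 (limma, adjusted p = 0.0126). Tlr7, an endosomal RNA sensor, differed by -1.02, and Tlr3, which senses double-stranded RNA, was higher by 0.85. Ifnb1, Ifna1, Ifna2, Ifna4 and Ifna5 were also on the list but were not found among the 14318 genes, and were not analysed here.

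The direction was shared by interferon-stimulated genes outside the 40 and by genes known mainly as targets of interferon gamma. Of 46 other interferon-stimulated genes, 34 were higher and 1, Ifitm2, was lower in untreated 4T1 tumors, with a median difference of 0.60. Among them, the GTPase genes Mx1 and Mx2 differed by 0.54 ± 0.22 (limma, adjusted p = 0.0366) and 0.61 ± 0.15 (limma, adjusted p = 0.000838). Of 22 genes of the interferon gamma response, 21 were higher and 0 were lower, and their median difference of 1.84 was above that of the 40 genes. The smallest p among these were those of Tgtp1 (3.50), Tgtp2 (3.20) and Irgm2 (2.38), GTPases that act on intracellular pathogens. Cxcl10, a chemokine for T cells that both interferon types induce, was at 272 ± 250 (SD, n = 4) normalized counts in 4T1 and 40.8 ± 14.6 (SD, n = 5) in 66cl4, with a difference of 1.28 ± 0.36 (limma, adjusted p = 0.00341). Ifng itself had 3 to 44 reads in untreated 4T1 tumors and 0 to 1 read in untreated 66cl4 tumors. Because many of the 40 genes respond to either type of interferon, these values do not separate the types.

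Several lists of cell type markers also held genes that differed between the untreated models, and their counts are read against the 28.7% of all genes that were higher and the 27.1% that were lower. Of 12 macrophage markers, 8 were lower and 0 were higher in 4T1, and their summed level was 17264 to 28028 normalized counts in 4T1 and 32112 to 46834 in 66cl4. Of 11 neutrophil markers, 9 were higher and 0 lower (sums of 1018 to 1933 and 352 to 497), and Ngp and Camp had 0 reads in at least 1 tumor of 66cl4. Of 11 T and NK cell markers, 7 were higher and 1 was lower (403 to 1700 and 262 to 522), and of 10 epithelial markers 9 were higher and 0 lower (22625 to 41062 and 3405 to 5209). Of 9 markers of plasmacytoid dendritic cells, the main producers of type I interferon, 2 were higher and 0 lower, with sums of 2574 to 3337 and 2114 to 2891, and Siglech had 0 reads in at least 1 tumor of 66cl4. Of 8 endothelial markers 5 were higher and 0 lower, and of 10 fibroblast markers 4 were higher and 3 lower, near the shares of all genes. The part of these cell types in the difference of the 40 genes was not tested.

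Over all treatments the difference between the models remained. In the mean of the 4 treatment groups, 36 of the 40 genes were higher in 4T1 and 1 was lower, where 40.8% of all genes were higher and 38% lower (limma, adjusted p under the threshold of 0.05), and the median difference was 0.89. For 17 of the 40 genes, each of the 19 tumors of 4T1 was above each of the 20 tumors of 66cl4, which was so for 9.87% of all genes, and for 0 of the 40 they were all below (7.98% of all genes). The 5 genes added to those called between untreated tumors were Samd9l (0.39 ± 0.10), Slfn5 (0.53 ± 0.16), Rsad2 (0.27 ± 0.11), Oas2 (0.24 ± 0.10) and Helz2 (0.14 ± 0.066). Ifi27l2a was lower, with a difference of -0.35 ± 0.16 (limma, adjusted p = 0.0404). Trim30a, Rigi and Ifit2 did not pass, at 0.14, 0.05 and 0.06. The calls of Helz2, Ifi27l2a, Rsad2 and Oas2 were lost under 35, 16, 10 and 7 of 47 alternatives, most of which left out 1 tumor. Over all 47 the differences ran from 0.11 to 0.17 for Helz2, from -0.51 to -0.26 for Ifi27l2a, from 0.19 to 0.57 for Rsad2 and from 0.18 to 0.35 for Oas2.

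The mean over the 40 genes in each tumor gave a compact view. In untreated 4T1 tumors 1, 2, 4 and 5 it was 9.54, 9.02, 9.42 and 9.91 on the log2-like scale, and in untreated 66cl4 tumors 1 to 5 it was 8.40, 8.47, 8.60, 8.59 and 8.56. The group means were 9.47 ± 0.37 (SD, n = 4) and 8.52 ± 0.086 (SD, n = 5). In treated 4T1 tumors it was 9.55 ± 0.26 in the anti-PD-1 group, 9.38 ± 0.20 in the chitin group and 9.32 ± 0.36 in the combination group (SD, n = 5 each). In 66cl4 the same groups were at 8.62 ± 0.16, 8.60 ± 0.14 and 8.63 ± 0.16 (SD, n = 5 each). The lowest 4T1 tumor of any group, at 9.01, was above the highest 66cl4 tumor, at 8.81, whereas the 4 groups of each model overlapped.

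**Figure D3:**
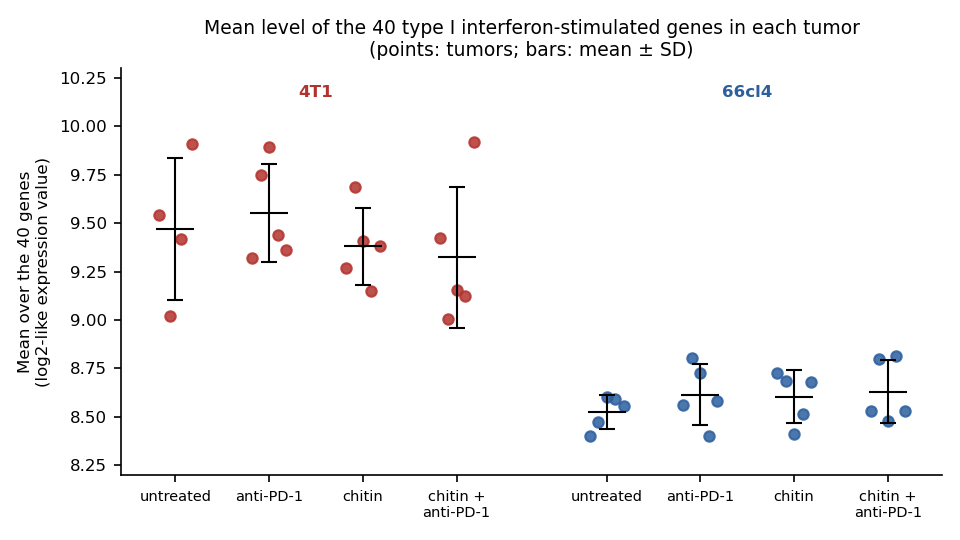
Mean of the log2-like expression values of the 40 genes in each tumor, by model and treatment; points are tumors and bars the mean ± SD. The 19 tumors of 4T1 lie between 9.01 and 9.92 and the 20 of 66cl4 between 8.40 and 8.81.

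Treatment was not followed by a change that passed the test in any of the 40 genes. In 12 comparisons within the models, 0 of the 40 genes and 0 of 14318 genes (0%) passed an adjusted p of 0.05 in limma, and limma-voom also called 0 genes. Leaving out 1 tumor kept the count at 0 for the 40 genes, while the count over all genes reached 202 for chitin + anti-PD-1 against anti-PD-1 without 4T1 anti-PD-1 tumor 2, and 269 for the chitin-containing groups of 66cl4 without untreated tumor 3. The precision differed between models, as the 95% confidence interval reached a median of 0.49 to either side of a difference from untreated tumors in 4T1 and 0.20 in 66cl4. In 4T1, anti-PD-1 minus untreated was positive for 28 of the 40 genes (median 0.03), chitin minus untreated for 11 (median -0.10) and chitin + anti-PD-1 minus untreated for 3 (median -0.14). Over all genes, 49.6%, 48.9% and 49.6% of the differences were positive. All 3 comparisons share the same 4 untreated tumors. Without 1 tumor, the difference of the mean over the 40 genes ran from -0.069 to 0.23 with anti-PD-1. It ran from -0.24 to 0.055 with chitin alone and from -0.30 to -0.0005 with both agents. Most of the 40 genes varied together with Irf7 within groups (below), so that the signs are not separate observations. At an unadjusted p of 0.05, 1 gene passed with anti-PD-1 (Trim25, -0.23 ± 0.10), and 0 passed after chitin alone or both agents, where 8.89%, 2.77% and 2.56% of all genes did. Between both agents and chitin alone 0 passed (3.11% of all genes).

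**Figure D4:**
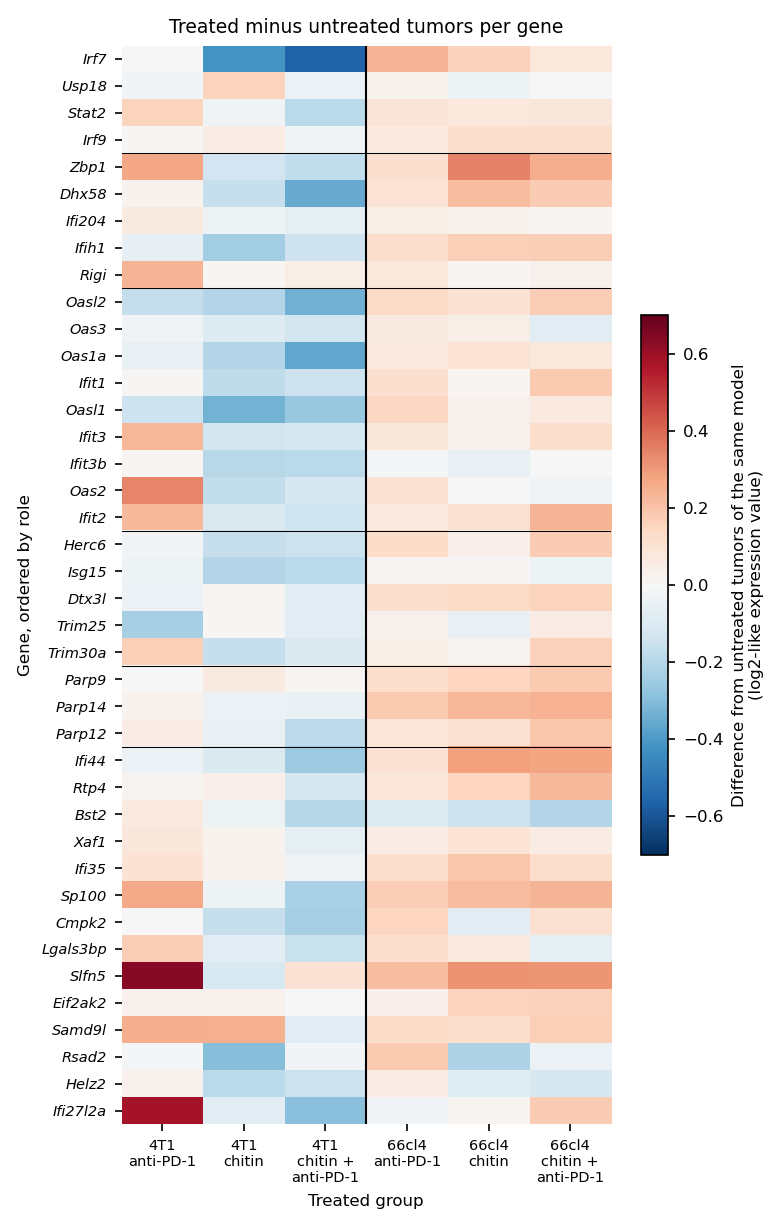
Difference between each treated group and the untreated tumors of the same model for the 40 genes, ordered by role, in log2-like expression values (blue lower, red higher than untreated). None of the differences passed an adjusted p of 0.05. In 4T1, 29 and 37 of 40 were negative after chitin alone and both agents, against 51.1% and 50.4% of all genes. In 66cl4, 33 and 31 were positive, against 49.9% and 51.0% of all genes.

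Irf7 had the lowest difference of the 40 genes in 4T1 for chitin and for both agents against untreated tumors and for the chitin-containing against the other groups, though not for both agents against anti-PD-1, where Ifi27l2a was lower. It was at 1487, 708, 1248 and 1875 normalized counts in untreated tumors 1, 2, 4 and 5. With anti-PD-1 it was at 1075, 1291, 1657, 1307 and 1063 in tumors 1 to 5. With chitin it was at 666, 2295, 1021, 660.0 and 569.6, and with chitin + anti-PD-1 at 951, 427, 695, 734 and 1615. Tumor 2 with chitin and tumor 5 with chitin + anti-PD-1 stood well above the rest of their groups, and all 4 groups overlapped. The difference of the chitin-containing groups from the other groups was -0.49 ± 0.24 and did not pass (limma, adjusted p = 0.686). In this comparison 36 of the 40 genes and 48.3% of all genes were negative, with a median of -0.17 over the 40. Without 1 tumor, the difference of the mean over the 40 genes ran from -0.23 to -0.087. Of the 40, 0 passed an unadjusted p of 0.05, where 7.28% of all genes did. Of 46 other interferon-stimulated genes 41 were negative as well (median -0.12), and of 22 interferon gamma genes 18 (median -0.12). Of the 12 macrophage markers 10 were negative, 7 of them at an unadjusted p of 0.05, and their summed level was 8774 to 26548 after chitin alone and 7519 to 25369 after both agents, against 17264 to 28028 in untreated and 15204 to 37077 in anti-PD-1-treated tumors. Of 11 T and NK cell markers 11 were negative, 10 of them at an unadjusted p of 0.05. The 4T1 tumors given chitin alone were also sequenced more deeply, with a median of 8759930 reads. The medians were 6504793 after both agents, 6295440 in untreated and 6164483 in anti-PD-1-treated tumors. Neutrophil markers went another way. They summed to 547 to 2446 after chitin alone and 1835 to 9392 after both agents, against 1018 to 1933 in untreated and 1441 to 3017 in anti-PD-1-treated tumors. The part of macrophages, T cells, NK cells, neutrophils and read depth in these differences was not tested, beyond an alternative at equal depth.

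Ifi27l2a varied widely among the treated 4T1 groups. It was at 825, 109.7, 592, 830.0 and 676 normalized counts with anti-PD-1, at 129, 612, 216, 332 and 308 after chitin alone and at 106, 177, 129, 401 and 567 after both agents, in tumors 1 to 5 of each group. With anti-PD-1, 4 tumors were above all 4 untreated tumors and tumor 2 was below them. Its difference between chitin + anti-PD-1 and anti-PD-1 was -0.87 ± 0.39 (limma, adjusted p = 0.526), and among the alternatives it passed only with weights estimated for each tumor. Sp100 was the other gene past an unadjusted p of 0.05 in that comparison, as were 9.13% of all genes. T and NK cell markers summed to 1318 to 2453 normalized counts with anti-PD-1 and to 275 to 1308 with chitin + anti-PD-1, and B cell markers to 163 to 5409 and 57.3 to 373, and their part was not tested.

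In 66cl4 the differences from untreated tumors were mostly positive. Anti-PD-1 minus untreated was positive for 37 of the 40 genes (median 0.09). Chitin minus untreated was positive for 33 (median 0.08) and chitin + anti-PD-1 minus untreated for 31 (median 0.12). Over all genes, 51.1%, 49.9% and 51.0% were positive. All 3 comparisons share the same 5 untreated tumors, so that the signs are not separate observations. At an unadjusted p of 0.05, 1, 5 and 5 of the 40 passed, all of them higher, where 5.36%, 11.4% and 10.6% of all genes did. Sp100, a component of nuclear bodies, was the only one that passed in all 3. It was at 280.3, 355, 392, 367 and 363 normalized counts in untreated 66cl4 tumors 1 to 5. With anti-PD-1 it was at 369.7, 438, 416, 389 and 434, after chitin alone at 482, 454, 380.1, 361 and 454 and after both agents at 406, 496, 395, 484 and 392. Untreated tumor 1 was the lowest of all 20, all treated groups overlapped with the untreated group, for both agents by 1 tumor alone, and the difference from untreated tumors was 0.17, 0.21 and 0.24.

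Zbp1 had the largest difference among those that passed the unadjusted threshold. Its normalized counts were 72.6, 104, 137, 164 and 125 in untreated and 233, 171, 109.9, 175 and 213 in chitin-treated 66cl4 tumors 1 to 5. In the chitin group 4 of 5 tumors were above all untreated ones, and the difference was 0.35 ± 0.16 (limma, unadjusted p = 0.0385, adjusted p = 0.405). Between the 10 chitin-containing and the 10 other tumors, 25 of the 40 genes were positive and 15 negative, where 51.5% of all genes were positive. Here Sp100 (0.14 ± 0.05), Dhx58 (0.15 ± 0.06), Zbp1 (0.24 ± 0.11), Eif2ak2 (0.14 ± 0.06) and Parp9 (0.11 ± 0.05) were positive and Helz2 (-0.13 ± 0.05) negative, all past an unadjusted p of 0.05 only, against 15.6% of all genes. At the same unadjusted threshold, 20 of 46 other interferon-stimulated genes were higher and 0 lower, led by Nmi at 0.21 ± 0.050 (limma, adjusted p = 0.0961), and 15 of 22 interferon gamma genes were higher and 1 lower. Of 12 macrophage markers 5 were higher and 0 lower, with sums of 47791 to 53697 after chitin alone and 47406 to 56612 after both agents, against 32112 to 46834 in untreated and 38728 to 56072 in anti-PD-1-treated tumors. The chitin-treated 66cl4 tumors were also sequenced more deeply, with medians of 10250227 reads after chitin alone and 8985408 after both agents against 6064018 in untreated tumors. At an equal depth of 5105898 reads per tumor, 0 of the 40 genes passed and 6 passed the unadjusted threshold, as at full depth, while the count over all genes at an adjusted p of 0.05 went from 0 to 12. The part of macrophages and of depth in these differences was not tested, beyond the values at equal depth. Between both agents and anti-PD-1 alone 2 of the 40 genes, Helz2 and Lgals3bp, passed the unadjusted threshold (8.3% of all genes), and between both agents and chitin alone 0 did (3.07%).

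Whether chitin acted differently in the models was tested as the difference between their differences. For the chitin-containing against the other groups, 0 of the 40 genes passed an adjusted p of 0.05, and 14 of 14318 genes did (0.0978%). Without 1 tumor the count over all genes ran from 0 (without 4T1 untreated tumor 5) to 677 (without 4T1 anti-PD-1 tumor 2), and that of the 40 genes stayed at 0. Of the 40, 37 had a lower value in 4T1 than in 66cl4 (48.1% of all genes), with a median of -0.19 against 0.01 over all genes. Dhx58 (-0.42 ± 0.15), Sp100 (-0.40 ± 0.17) and Zbp1 (-0.53 ± 0.23) passed an unadjusted p of 0.05, as did 13.2% of all genes, and the smallest adjusted p of the 40 was 0.213 (Dhx58, limma). limma-voom gave 0 of the 40 genes and 17 of all genes. For Dhx58, the chitin and chitin + anti-PD-1 groups were at 312, 515, 326, 245 and 292 and at 257, 166, 269, 263 and 487 normalized counts in 4T1, against 448, 241, 353 and 540.0 in untreated and 329, 407, 513, 381 and 346 in anti-PD-1-treated tumors. In 66cl4 the same groups, in that order, were at 150.1, 135, 122, 119 and 168, at 104, 147, 135, 166 and 112, at 90.1, 76.8, 124, 134 and 109 and at 126, 115, 146, 98.8 and 113. The groups overlapped in both models. For each treatment against untreated tumors, the difference between models passed for 0 of the 40 genes and 0 of all genes (0%) in limma and in limma-voom, and 1 of the 40 passed an unadjusted p of 0.05 in each of the 3 (Trim25 with anti-PD-1, Ifih1 with chitin alone and Dhx58 with both agents), where 7.27%, 6.88% and 5.46% of all genes did.

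Tumors of 1 group differed more from each other in 4T1 than in 66cl4. The SD within groups was larger in 4T1 for 40 of the 40 genes, with a median of 0.38 against 0.16 on the log2-like scale and a median ratio of 2.08. Over all 14318 genes it was larger in 4T1 for 91.4%, with a median ratio of 1.67, so that a wider spread in 4T1 was shared by most genes. The deviation of each of the 39 other genes from its group mean was correlated with that of Irf7, over the 19 tumors of 4T1 and the 20 of 66cl4 separately (78 relations, two-sided permutation tests with 100000 resamples, Benjamini-Hochberg over the 78). All 39 genes were positive in both models. In 4T1, 36 of 39 passed an adjusted p of 0.05 by Pearson's r and 36 by Spearman's rho, with a median r of 0.67 (0.21 to 0.93) and a median rho of 0.67. The lowest r that passed in 4T1 was 0.47 and the lowest rho 0.48. These levels were reached by 5.97% and 4.54% of 14310 genes other than Irf7, the 39 included, whose median r was 0.0018. In 66cl4, 32 passed by r and 34 by rho, with a median r of 0.59 (0.17 to 0.89) and a median rho of 0.67. Here the lowest r and rho that passed were 0.46 and 0.46. Each was reached by 4.22% of 14316 genes other than Irf7, the 39 included, with a median r of 0.010.

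The gene closest to Irf7 was Dhx58 in 4T1 (r = 0.93, rho = 0.90) and Ifit3b in 66cl4 (r = 0.89, rho = 0.86), each with a permutation p of 1e-05, the smallest that 100000 resamples can give. In 4T1 Trim25 (r = 0.21, rho = 0.21), Ifi27l2a (0.40, 0.33) and Slfn5 (0.41, 0.35) did not pass. In 66cl4 the lowest were Helz2 (0.17, 0.14) and Samd9l (0.28, 0.40), and Irf9, Stat2, Trim25, Parp14 and Rigi also did not pass by r. Rigi and Ifit2, which did not pass the test between the untreated models, followed Irf7 in 4T1 at r = 0.75 each. Without the 2 tumors farthest from the median of Irf7 the median r was 0.71 in 4T1 and 0.62 in 66cl4, with Dhx58 at 0.92 in 4T1 and Ifit3b at 0.86 in 66cl4. All values of a tumor come from 1 library and share its cell composition, and the part of infiltrating cells in these relations was not tested.

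**Figure D5:**
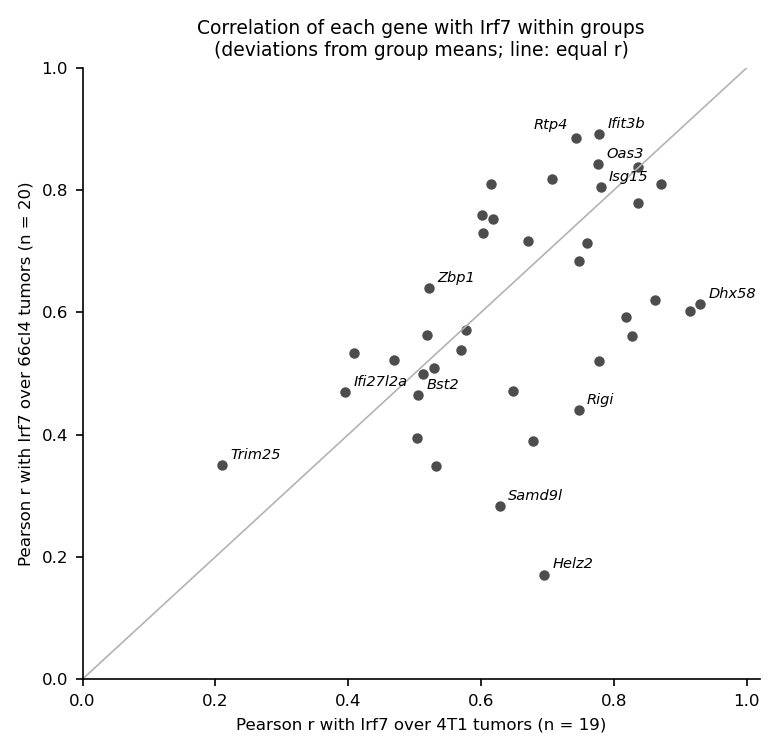
Pearson's r between Irf7 and each of the 39 other genes over the 19 tumors of 4T1 (x axis) and the 20 tumors of 66cl4 (y axis), after the group means were removed; the line marks equal r. All points are positive on both axes, with Dhx58 at 0.93 in 4T1, Ifit3b at 0.89 in 66cl4 and Helz2 at 0.70 in 4T1 but 0.17 in 66cl4, a difference between models that was not tested.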

How the data were processed

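RNA was sequenced as 150 bp reads, and 39 tumors of 8 groups were analysed. Per the labels and the study's methods, the authors aligned reads with HISAT2 to mm10, counted them per gene with summarizeOverlaps (intersection non-empty, with strand), kept genes with over 10 counts in at least 10% of samples and applied the variance-stabilizing transformation of DESeq2. Versions and the annotation were not given in the sources used here. The deposited values are therefore on a log2-like scale. Dividing out the transformation returned whole reads for 100.0% of values within 0.001, with 5105898 to 14800352 reads per tumor (median 6590274), so that the numbers of tumors and reads limit the precision. Normalized counts are these reads divided by the size factor.

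The deposited values were compared with limma 3.58.1 (R 4.3.3; linear model of groups, eBayes with trend), over all 8 groups between the models and within each model for treatments. All groups of a fit share 1 estimate of the spread per gene. P-values were adjusted by Benjamini-Hochberg over 14318 genes, with a threshold of 0.05. Per the study's methods, mice were caged singly and a pair of mammary glands was inoculated in each. No label says which tumors share a mouse or litter, so that tumors of a group may not be independent. P-values measure the spread between these tumors. Correlations used permutation tests in Python 3.11.15 (numpy 2.4.6, scipy 1.17.1, pandas 2.3.3), figures matplotlib 3.10.9. Scripts were tested on simulated data. Alternatives were other normalizations, filters, variance models, sets of samples, tumor weights, limma-voom on the recovered reads, equal depth, a replicate block and leaving out each tumor. The 40 genes and the pathway and marker lists were chosen with earlier results of these data known. Named in full were, for each role, up to 3 of the 40 genes with the smallest p between the untreated models, and from the other lists Ifnar1, Ifnar2, Irf1, Mx1, Mx2, Cxcl10 and the 3 with the smallest p. One gene of this rule is not reported here. Further genes were named after their values were seen.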

Additional observations from a re-analysis of the deposited data

Results flagged for a closer look

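Among 320 combinations of a gene and a group, 19 had 1 tumor that stood apart from the rest of its group by Dixon's criterion, which by chance marks about 1 in 20. Values are normalized counts. Tumor 5 of the 4T1 chitin + anti-PD-1 group was high for 4 genes, Ifit2 (926), Eif2ak2 (917), Ifih1 (685) and Oas2 (399). The same tumor had the highest mean over the 40 genes, at 9.92 on the log2-like scale. In the other 4T1 groups, Oas1a was high in chitin tumor 2 (1216), Eif2ak2 in chitin tumor 1 (814) and Sp100 in anti-PD-1 tumor 3 (1204), and Ifi27l2a was low in anti-PD-1 tumor 2 (109.7). In 66cl4, chitin tumor 3 was low for Dtx3l (434), Rigi (369) and Ifih1 (222), while chitin tumor 1 was high for Ifit3 (124) and its near-identical neighbor Ifit3b (47.3). Among untreated 66cl4 tumors, Oasl2 was low in tumor 1 (193), Parp14 high in tumor 4 (679) and Cmpk2 high in tumor 3 (88.8). Bst2 was high in 66cl4 anti-PD-1 tumor 3 (1194), Ifi27l2a was low in 66cl4 anti-PD-1 tumor 4 (216) and Helz2 was low in 66cl4 chitin + anti-PD-1 tumor 5 (441). No tumor stood apart from its group in the mean over the 40 genes.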

How the results depend on the processing

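Between the untreated models, 36 of the 40 genes kept their direction and their side of the threshold under all 48 alternatives, and in the mean of the 4 treatments 34 did under 47. With tumor weights, 1 of the 40 genes passed in 4T1 for chitin + anti-PD-1 against anti-PD-1 and 1 in the difference between models for the chitin-containing groups, in both cases Ifi27l2a, which was lower (-1.34 and -0.81). The difference of Rigi between untreated models changed sign at equal depth (-0.0029), with median centring (-0.022), quantile normalization (-0.030) and tumor weights (-0.032), and ran from -0.084 to 0.097 without 1 tumor. That of Ifit2 ran from -0.022 to 0.38 without 1 untreated tumor, and over the 4 treatments from -0.015 to 0.12 without 1 tumor and at -0.053 with tumor weights. The number of all genes called depended on the setting: with tumor weights it was 960 for anti-PD-1 and 2127 for chitin + anti-PD-1 against anti-PD-1 in 4T1 (0 without weights), 297 and 185 for the chitin-containing groups in 4T1 and 66cl4 (0), and 331 and 1004 for the differences between models with anti-PD-1 and the chitin-containing groups (0 and 14). With both models in 1 fit the first 2 counts were 60 and 294, and 58 for the chitin-containing groups in 4T1. The 14 genes became 39 with quantile normalization, 5 at equal depth and 8 without the 25% of genes with the lowest mean. The cause of these changes was not tested. Tumor numbers were not taken to pair the samples, as no label relates them to mice or litters. Same-numbered tumors correlated at -0.39 to 0.54 within a model (median 0.014, 57 pairs). Of the 5 pairs of untreated and anti-PD-1-treated 66cl4 tumors, 4 were at 0.28 to 0.54. Differently numbered tumors were not compared in this way, so that these values cannot decide whether the numbers pair the samples. With the number as a replicate block 31 of the 40 genes were still called between the untreated models and 36 (35 higher, 1 lower) over the 4 treatments, and 104 of all genes for the difference between models with the chitin-containing groups. The block also moved the counts of all genes in 66cl4 from 0 to 16 for the chitin-containing groups, 7 for both agents and 2 for chitin alone, and from 0 to 1 in 4T1 for both agents against untreated tumors and against anti-PD-1.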
